A study of Homo sapiens with 16 samples.

Results

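AQP1, NREP, PLEKHA2, EPB41L3, GCM1 and GPR83 are 6 genes chosen by a measured value, in raw read counts of HUH6 cells. The effect of SLC-0111 on their RNA differed strongly between hypoxia and normoxia, at places 3 to 425 by p-value in edgeR's test of that difference. They are 6 of the 58735 genes in the count table and 6 of the 18385 that passed the filter on low counts, so all 6 were tested. HUH6 is an established human hepatoblastoma line, derived from a liver tumour of early childhood. SLC-0111, also called U-104, inhibits the carbonic anhydrases CAIX and CAXII and was given at 100 µM for 48 h, with the solvent DMSO as its control. The groups were hypoxia with SLC-0111, hypoxia with DMSO, normoxia with SLC-0111 and normoxia with DMSO, with 4 libraries of total RNA in each, and hypoxia was an O2 partial pressure of 1%. All cells were of the same line and were kept in serum-containing DMEM with antibiotics, and the study calls the libraries of a group technical replicates, so p-values measure only the spread between these libraries. The study set out to describe how SLC-0111 changes the transcriptome at each oxygen level. In bulk RNA, fewer cells that express a gene and less RNA per cell cannot be told apart.

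Cells short of oxygen stabilise hypoxia-inducible factors (HIFs), which bind a short core motif in DNA and raise genes of glycolysis, vessel growth and acid handling, CAIX among them. CAIX and CAXII sit on the outer face of the cell membrane and convert CO2 and water to bicarbonate and a proton, which helps tumour cells to keep their internal pH while acidifying their surroundings. The 6 genes are not a known pathway. AQP1 is a water channel that can also pass CO2, NREP is a small protein tied to TGF-beta production, PLEKHA2 (TAPP2) is an adaptor that binds a membrane lipid, EPB41L3 (protein 4.1B) links membrane proteins to the cytoskeleton, GCM1 is the transcription factor of placental syncytium formation, and GPR83 is a G protein-coupled receptor for neuropeptides.

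The promoter windows of 4 of the genes are shown because the HIF core motif is the best known DNA element of the oxygen response, and oxygen separates most of these genes. Each runs from 250 bases before to 50 bases after an annotated start on the gene's own strand, from RefSeq on build GRCh38.p14. The windows are chr7:30911603-30911902 on the plus strand for AQP1, chr5:111757680-111757979 on the minus strand for NREP, chr6:53148792-53149091 on the minus strand for GCM1 and chr11:94401370-94401669 on the minus strand for GPR83. Capitals mark the core motif, ACGTG or GCGTG, on either strand.
AQP1: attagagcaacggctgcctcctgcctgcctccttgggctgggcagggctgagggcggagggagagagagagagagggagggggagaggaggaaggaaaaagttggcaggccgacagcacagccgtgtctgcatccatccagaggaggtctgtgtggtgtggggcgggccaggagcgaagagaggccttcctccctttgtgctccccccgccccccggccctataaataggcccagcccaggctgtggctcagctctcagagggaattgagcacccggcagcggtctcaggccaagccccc
NREP: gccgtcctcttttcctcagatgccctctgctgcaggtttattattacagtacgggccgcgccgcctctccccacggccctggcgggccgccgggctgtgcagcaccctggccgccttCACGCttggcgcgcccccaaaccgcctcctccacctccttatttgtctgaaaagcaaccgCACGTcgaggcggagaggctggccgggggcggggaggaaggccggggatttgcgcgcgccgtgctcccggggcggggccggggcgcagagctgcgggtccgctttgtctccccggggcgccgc
GCM1: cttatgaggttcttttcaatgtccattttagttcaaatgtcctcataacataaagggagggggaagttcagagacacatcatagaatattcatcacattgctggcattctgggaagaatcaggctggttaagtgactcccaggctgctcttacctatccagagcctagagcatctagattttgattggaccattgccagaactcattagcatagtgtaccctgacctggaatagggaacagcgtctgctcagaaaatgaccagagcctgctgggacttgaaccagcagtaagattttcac
GPR83: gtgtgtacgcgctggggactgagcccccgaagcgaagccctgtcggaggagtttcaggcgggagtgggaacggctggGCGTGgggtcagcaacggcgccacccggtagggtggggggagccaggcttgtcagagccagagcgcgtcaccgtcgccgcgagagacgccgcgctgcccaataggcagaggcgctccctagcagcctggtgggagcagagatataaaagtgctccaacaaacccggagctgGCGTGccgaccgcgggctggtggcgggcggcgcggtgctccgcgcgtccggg
The window of GPR83 holds GCGTG at 2 places, whose first printed base lies 173 and 2 bases before the start. NREP has 6 annotated windows, and the one printed is the 1 of them with a core motif. It holds both forms on the opposite strand, printed as CACGC and CACGT, 133 and 73 bases before the start. The AQP1 and GCM1 windows hold no match. EPB41L3, whose windows are not printed, has a match in 3 of its 4 windows, and in the window with the E-box CACGTG both of its matches, one on each strand, lie within that E-box. Of all 35116 windows of 300 bases in the table, 48.4% hold either form (21.4% ACGTG, 36.5% GCGTG) and 7.26% hold CACGTG. A further motif, TGATGNAA, the core of the amino acid response element, was in none of the windows of these 5 genes and in 3.62% of all. PLEKHA2 was not searched for any of these motifs. A match is a description of letters, and no match says only that these letters are not in this window.

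Library totals ran from 18275209 to 49248964 counts, except 3298106 in hypoxia DMSO replicate 3, which also stood apart on the second principal component (18.6% of the variance). Hypoxia DMSO replicate 1 had a score of -27.3 on the first component (47.9% of the variance), against -49.6 to -48.2 in the other DMSO libraries in hypoxia. The libraries without a replicate number, 1 in hypoxia DMSO and 1 in normoxia SLC-0111, are named last in their groups. Of 8 hepatoblastoma markers, 7 exceeded 1 CPM (counts per 1000000), while DLK1 had 8 counts over all libraries. Blood and immune markers summed to at most 0.341 CPM in any library. The 5 endothelial markers summed to 55.1 to 58.7 CPM in hypoxia with SLC-0111, 50.5 to 61.4 in hypoxia with DMSO, 56.2 to 63.5 in normoxia with SLC-0111 and 52.0 to 57.7 in normoxia with DMSO. Nearly all of this was PECAM1, while CDH5 reached at most 1.91 CPM and VWF, TEK and KDR had 68, 27 and 4 counts over all libraries. The 4 neural markers summed to 12.9 to 18.4 CPM over all libraries, nearly all of it SYT1. The 4 fibroblast markers summed to 36.3 to 41.8 CPM in hypoxia with SLC-0111, 53.0 to 55.8 in hypoxia with DMSO, 16.2 to 17.4 in normoxia with SLC-0111 and 27.4 to 30.4 in normoxia with DMSO. Nearly all of this was PDGFRB, as COL3A1, LUM and DCN had 13, 6 and 3 counts over all libraries.

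The plot of levels in all 16 libraries and the values below show 3 kinds of pattern. AQP1, NREP and PLEKHA2 were far higher in hypoxia, and SLC-0111 went with a lower level in hypoxia and a higher mean level in normoxia. EPB41L3 was the mirror image, lower in hypoxia at either treatment, with SLC-0111 on the higher side in hypoxia and on the lower side in normoxia. GCM1 was highest in hypoxia with SLC-0111 and lowest in hypoxia with DMSO, and GPR83 was low in normoxia with SLC-0111 alone. These values chose the genes, so they are given as a description, with no test.

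**Figure D1:**
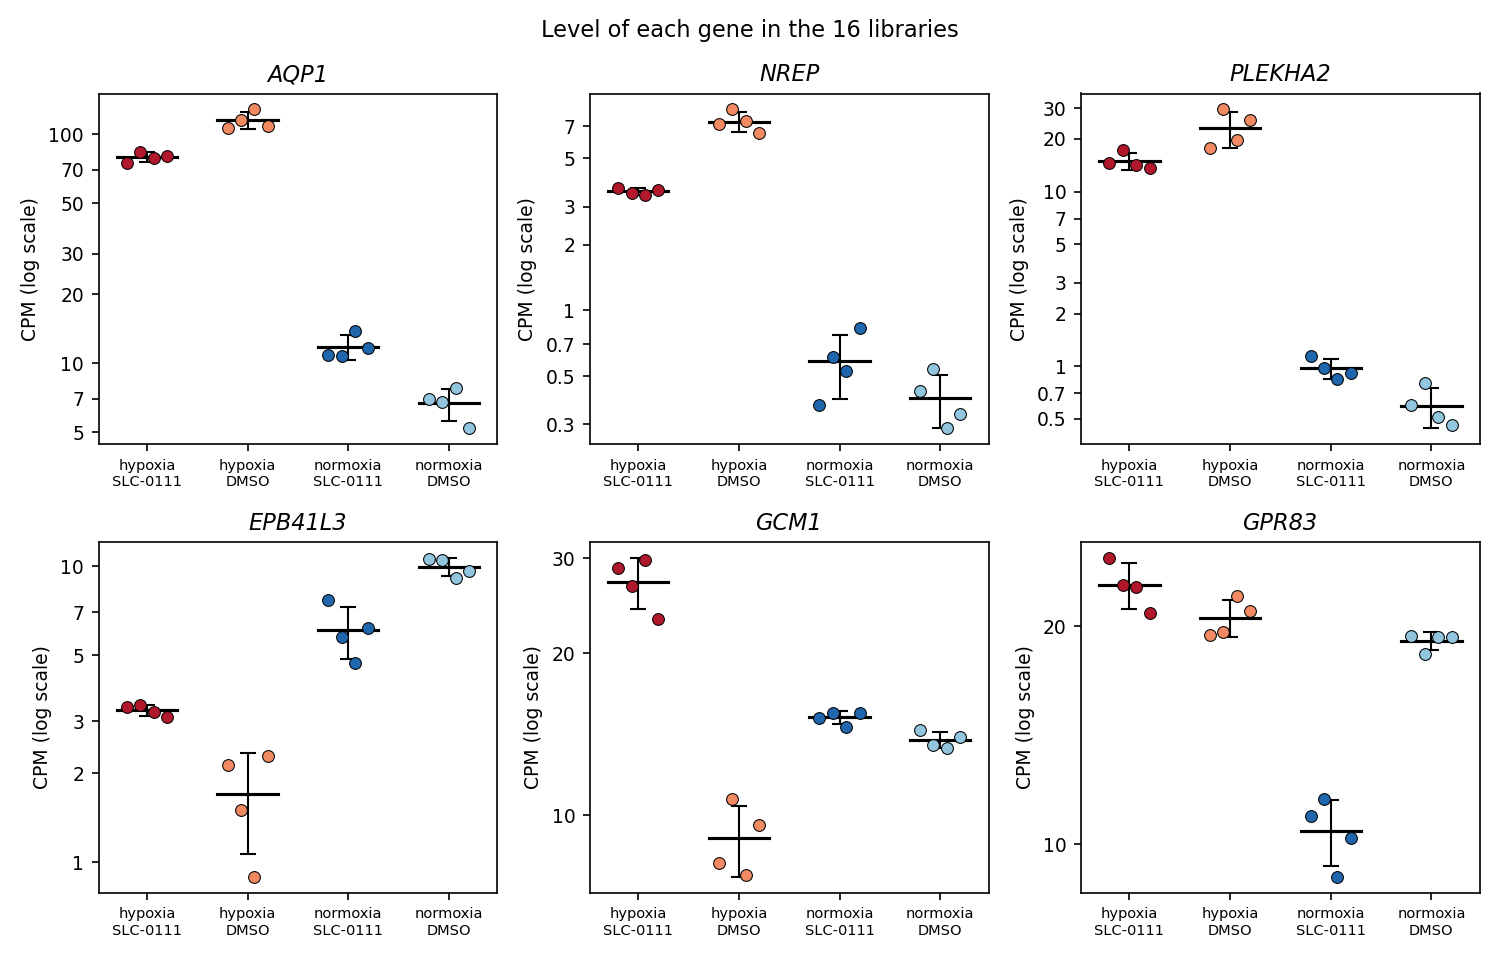
Level of the 6 genes in each of the 16 libraries, in CPM on a log axis, by group. Each point is 1 library, the long bar is the group mean and the whiskers are ± 1 SD (n = 4). The highest group is hypoxia DMSO for AQP1, NREP and PLEKHA2, normoxia DMSO for EPB41L3 and hypoxia SLC-0111 for GCM1, and the lowest group for GPR83 is normoxia SLC-0111.

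Between SLC-0111 and DMSO in hypoxia, 5 of the 6 genes had groups that did not overlap, the exception being GPR83, where 17.0% of all tested genes had groups apart. In normoxia it was also 5 of 6, the exception being NREP, with 29.6% of all tested genes. Between hypoxia and normoxia it was 6 of 6 with SLC-0111 (43.6% of all tested genes) and 6 of 6 with DMSO (42.6%). Since the same values chose the genes, nothing is read from these counts. Over all genes, edgeR called a difference between the SLC-0111 effects for 1102 genes, or 5.99%, at an adjusted p under 0.05, 2.87% with a higher effect in hypoxia and 3.13% with a lower one. That count ran from 691 to 2040 when each library was left out in turn, with 691 without normoxia DMSO replicate 2, 708 without hypoxia SLC-0111 replicate 3 and 2040 without hypoxia DMSO replicate 1. In this order by p-value GCM1 was at place 3, AQP1 at 5, GPR83 at 7, EPB41L3 at 36, NREP at 133 and PLEKHA2 at 425. The genes just inside and outside these places included TNFSF10 at place 2 with a difference of -1.77, ALOX15 at place 4 with -0.98, and CEACAM1 and DEPDC1B at 424 and 426 with 0.68 and 0.36 (log2).

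AQP1 (chr7:30911694-30925516, plus strand, GENCODE 29 on GRCh38, protein coding) forms the water pore of red cells, kidney tubules and capillaries. Per length of exon it was the most abundant of the 6 in hypoxia, with a mean of 23.1 CPM per kb with SLC-0111 and 33.4 with DMSO, whereas in normoxia its 3.43 and 1.94 CPM per kb lay below the 5.50 and 5.00 of GCM1. In hypoxia it had 74.5, 83.8, 78.3 and 80.5 CPM with SLC-0111, against 107, 115, 128 and 109 CPM with DMSO. In normoxia it had 10.8, 10.8, 13.9 and 11.6 CPM with SLC-0111, against 6.99, 6.75, 7.76 and 5.20 CPM with DMSO. Each of the 4 groups stood clear of the other 3. With SLC-0111 the level in hypoxia was thus 1.43-fold lower than with DMSO (log2 -0.52 ± 0.08, SE), while in normoxia it was 1.78-fold higher (0.83 ± 0.10). The distance between hypoxia and normoxia was 6.69-fold with SLC-0111 and 17.1-fold with DMSO.

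Averaged over both oxygen levels, a measure that did not itself choose the genes, the SLC-0111 effect on AQP1 was 0.16 ± 0.06. It did not pass edgeR's test (adjusted p = 0.0712). It passed without hypoxia DMSO replicate 3 (0.18, adjusted p = 0.0428) and without normoxia DMSO replicate 3 (0.20, adjusted p = 0.0259), in runs that are unbalanced. Averaged over both treatments, AQP1 rose in hypoxia by 3.42 ± 0.07 (10.7-fold, adjusted p = 6.43e-22). It was higher in all 8 hypoxic libraries than in any of the 8 normoxic ones.

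Of the 16 other aquaporins and Rh glycoproteins, the membrane channels for water, glycerol, ammonia and CO2, 7 passed the filter. Their average SLC-0111 effect was called higher in 5 and lower in 0, where 15.4% and 13.3% of all tested genes were called higher and lower, with a median of 0.50 against 0.0038 for all tested genes. At an unadjusted p under 0.05 edgeR still put 0 of the 7 lower. DESeq2 and limma-voom, at an adjusted p under 0.05, also called 0 lower. AQP3, which also passes glycerol, averaged 93.6 ± 6.18 CPM with SLC-0111 and 55.9 ± 7.33 CPM with DMSO in hypoxia, and 80.4 ± 4.76 and 48.6 ± 0.958 CPM in normoxia (SD, n = 4 each). It thus rose with SLC-0111 by 0.73 ± 0.05 on average (adjusted p = 1.36e-10). RHBG, an ammonia channel, rose with SLC-0111 by 0.50 ± 0.06 (adjusted p = 6.01e-07), and AQP4, the main water channel of astrocytes, by 0.47 ± 0.11 (adjusted p = 0.00208).

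The average oxygen effect was called higher in 6 of these 7 channels and lower in 1, where 29.5% and 31.0% of all tested genes were called higher and lower, with a median of 0.45 against -0.019 for all tested genes. AQP10, a water and glycerol channel of the gut, had 59.3 ± 7.17 CPM with SLC-0111 and 58.3 ± 13.7 CPM with DMSO in hypoxia, against 0.290 ± 0.197 and 0.0868 ± 0.0414 CPM in normoxia. Its average oxygen effect of 8.43 ± 0.22 (adjusted p = 2.89e-14) stands beside 3.42 for AQP1, at levels in normoxia near the floor of 3 counts in a library. The difference between the SLC-0111 effects was called by edgeR in 0 of the 7, beside 5.99% of all tested genes, although 2 were lower at an unadjusted p under 0.05. DESeq2 called 1 of them lower, limma-voom 0, and edgeR 1 when hypoxia DMSO replicates 1 and 3 were left out. In that last run edgeR called 2953 genes in all, against 1102 in the main run.

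NREP (chr5:111662621-111997464, minus strand, protein coding), also known as P311, is a short intracellular protein first described in nerve regeneration and reported to raise the translation of TGF-beta ligands. It was scarce: group totals were 445 counts in hypoxia with SLC-0111, 593 in hypoxia with DMSO, 63 in normoxia with SLC-0111 and 44 in normoxia with DMSO. In hypoxia it had 3.66, 3.47, 3.39 and 3.58 CPM with SLC-0111, against 7.15, 8.38, 7.44 and 6.53 CPM with DMSO. In normoxia it had 0.368, 0.611, 0.528 and 0.828 CPM with SLC-0111, against 0.426, 0.537, 0.289 and 0.336 CPM with DMSO. The groups in hypoxia were apart, while the groups in normoxia overlapped, each library there holding 8 to 20 counts. The level with SLC-0111 was 2.10-fold lower than with DMSO in hypoxia (log2 -1.07 ± 0.13) and 1.48-fold higher in normoxia (0.57 ± 0.26), a difference of -1.64 ± 0.30.

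For NREP the average SLC-0111 effect was -0.25 ± 0.15 and did not pass the test (adjusted p = 0.233). Its average oxygen effect was 3.41 ± 0.13, or 10.7-fold (adjusted p = 1.15e-16), a rise in hypoxia beside 3.42 for AQP1. STARD4-AS1, an antisense RNA that overlaps NREP, also rose in hypoxia (2.26 ± 0.22, adjusted p = 6.26e-09) and fell with SLC-0111 on average (-0.89 ± 0.24, adjusted p = 0.00618). It had 0.719 ± 0.243 CPM in hypoxia with SLC-0111 and 1.81 ± 0.213 CPM in hypoxia with DMSO. STARD4-AS1 covers only part of NREP. The strand setting of the count is not given in the sources used here, so the gene of origin is uncertain for reads from the shared stretch. The part of STARD4-AS1 in the NREP values was not tested.

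Of the 16 TGF-beta ligands, latency proteins, receptors, SMADs and targets, all tested, the average SLC-0111 effect was called higher in 4 and lower in 3, beside 15.4% and 13.3% of all tested genes, with a median of 0.0018. The ligands TGFB2 and TGFB3 both fell with SLC-0111, by 0.80 ± 0.16 (adjusted p = 0.000536) and by 0.65 ± 0.09 (adjusted p = 7.82e-06) on the log2 scale. TGFB3 had 3.78 ± 0.594 CPM with SLC-0111 and 5.02 ± 0.984 CPM with DMSO in hypoxia, and 6.02 ± 0.817 and 11.6 ± 0.503 CPM in normoxia.

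In hypoxia, 8 of the 16 rose and 5 fell, beside 29.5% and 31.0% of all tested genes, with a median oxygen effect of 0.18. SMAD7, which restrains TGF-beta signalling, rose in hypoxia by 1.74 ± 0.16 (adjusted p = 6.33e-07), while TGFB3 fell by 0.95 ± 0.09 (adjusted p = 2.9e-09). The difference between the SLC-0111 effects was called in 3 of the 16, beside 5.99% of all tested genes, with a median of -0.086 against -0.023 for all tested genes. It was 0.60 ± 0.18 for TGFB3 (adjusted p = 0.0489), -0.46 ± 0.11 for the receptor TGFBR1 (adjusted p = 0.0132) and -0.56 ± 0.14 for LTBP2, a matrix protein of the latency family (adjusted p = 0.0218). When hypoxia DMSO replicates 1 and 3 were left out, 2 of the 16 were called higher and 4 lower. That run called 2953 genes in all, against 1102 in the main run.

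PLEKHA2 (chr8:38901235-38973909, plus strand, protein coding) encodes TAPP2, which binds the lipid PtdIns(3,4)P2 made after PI3-kinase activation. It had the largest distance between hypoxia and normoxia of the 6, 15.6-fold with SLC-0111 and 40.4-fold with DMSO. In hypoxia it had 14.7, 17.4, 14.2 and 13.7 CPM with SLC-0111, against 17.8, 29.5, 19.7 and 25.5 CPM with DMSO. In normoxia it had 1.15, 0.971, 0.844 and 0.921 CPM with SLC-0111, against 0.597, 0.806, 0.513 and 0.459 CPM with DMSO. The groups did not overlap at either oxygen level, but the gap was small in both, 17.4 against 17.8 CPM in hypoxia and 0.844 against 0.806 CPM in normoxia. The lower DMSO values in hypoxia were those of replicates 1 and 3, the libraries that stood apart, and without them the DMSO mean was 27.5 CPM in place of 23.1 CPM.

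The level of PLEKHA2 with SLC-0111 was 1.58-fold lower than with DMSO in hypoxia (log2 -0.66 ± 0.12) and 1.63-fold higher in normoxia (0.71 ± 0.30), where group totals were 104 counts with SLC-0111 and 66 with DMSO. The average SLC-0111 effect was 0.022 ± 0.148 and did not pass the test (adjusted p = 0.941), effects of opposite sign being averaged. The average oxygen effect was 4.65 ± 0.13, a 25.1-fold rise in hypoxia (adjusted p = 9.18e-19).

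Of the 16 other genes for turnover of this lipid and for partners of the TAPP proteins, 15 were tested. On average over oxygen, SLC-0111 went with a called rise in 3 and a called fall in 2, beside 15.4% and 13.3% of all tested genes, with a median effect of 0.037. MPDZ, a scaffold of many PDZ domains, rose with SLC-0111 by 0.50 ± 0.05 (adjusted p = 2.03e-07) and SNTB1, a syntrophin and thus an adaptor of the dystrophin complex, by 0.28 ± 0.04 (adjusted p = 3.39e-05). In hypoxia 6 rose and 5 fell, beside 29.5% and 31.0% of all tested genes, with a median of -0.057. PLEKHA1, the paralogue TAPP1, had 60.4 ± 3.56 CPM with SLC-0111 and 61.8 ± 8.96 CPM with DMSO in hypoxia, against 40.5 ± 2.36 and 37.6 ± 1.47 CPM in normoxia. It rose in hypoxia by 0.65 ± 0.05 (adjusted p = 4.2e-10), beside 4.65 for PLEKHA2.

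The phosphatases INPP4B, which removes a phosphate from this lipid, and INPP5D (SHIP1), which makes the lipid, rose in hypoxia by 1.27 ± 0.09 (adjusted p = 7.95e-12) and by 0.69 ± 0.05 (adjusted p = 5.44e-12). The difference between the SLC-0111 effects was called lower in 3 of the 15, beside 3.13% of all tested genes, with a median of -0.064. It was -0.65 ± 0.17 for INPP4B (adjusted p = 0.0276), -0.37 ± 0.11 for MPDZ (adjusted p = 0.0416) and -0.32 ± 0.09 for SNTB1 (adjusted p = 0.0311). When hypoxia DMSO replicates 1 and 3 were left out, 6 were called lower and 1 higher. Over all genes that run called 2953, against 1102 in the main run, so the main-run share of 3.13% does not apply to it.

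EPB41L3 (chr18:5392381-5630700, minus strand, protein coding), known as protein 4.1B or DAL-1, anchors cell adhesion molecules to spectrin and actin, and its loss is described in several tumours. In hypoxia it had 3.36, 3.401, 3.21 and 3.10 CPM with SLC-0111, against 2.14, 1.501, 0.893 and 2.28 CPM with DMSO. In normoxia it had 7.67, 5.75, 4.72 and 6.17 CPM with SLC-0111, against 10.6, 10.5, 9.11 and 9.66 CPM with DMSO. All 4 groups were apart, and SLC-0111 lay between the DMSO levels of the oxygen conditions in every library. The lowest value rests on 3 counts, in the shallow hypoxia DMSO replicate 3, and without that library the DMSO mean in hypoxia was 1.97 CPM in place of 1.70 CPM. The level with SLC-0111 was 1.74-fold higher than with DMSO in hypoxia (log2 0.80 ± 0.17) and 1.66-fold lower in normoxia (-0.73 ± 0.12).

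The average SLC-0111 effect on EPB41L3 was 0.034 ± 0.106 and did not pass the test (adjusted p = 0.855). Averaged over treatments, EPB41L3 fell in hypoxia by 1.65 ± 0.10 on the log2 scale (adjusted p = 2.5e-12), the only member whose average oxygen effect was called lower. Of the 18 other 4.1 proteins and partners, 16 were tested, and in hypoxia 6 rose and 5 fell, beside 29.5% and 31.0% of all tested genes, with a median of -0.041. The paralogue EPB41L2 rose in hypoxia by 0.55 ± 0.03 (adjusted p = 3.28e-13), at 159 ± 4.37 CPM with SLC-0111 and 191 ± 7.97 CPM with DMSO in hypoxia, against 117 ± 3.08 and 121 ± 4.20 CPM in normoxia. MPP2, a membrane scaffold of the guanylate kinase family, rose by 3.94 ± 0.17 (adjusted p = 1.36e-14). PRMT3, an arginine methyltransferase that protein 4.1B binds, fell by 0.56 ± 0.05 (adjusted p = 8.63e-10).

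With SLC-0111, 2 of these 16 rose and 3 fell on average, beside 15.4% and 13.3% of all tested genes, with a median of 0.0079. The scaffold MPP1 rose by 0.37 ± 0.04 (adjusted p = 2.49e-07) and the 4.1 protein EPB41L4B by 0.16 ± 0.04 (adjusted p = 0.00234), while the methyltransferase PRMT5 fell by 0.29 ± 0.05 (adjusted p = 4.6e-05). The difference between the SLC-0111 effects was called in 1 of the 16, EPB41L2, at -0.21 ± 0.06 (adjusted p = 0.0459), the sign opposite to that of EPB41L3, beside 5.99% of all tested genes called. The median was -0.038. When hypoxia DMSO replicates 1 and 3 were left out, 2 of the 16 were called higher, the sign of EPB41L3, and 1 lower. That run called 2953 genes in all, against 1102 in the main run. With RLE in place of TMM scaling in edgeR the call of EPB41L2 was lost. DESeq2 called 0 of the 16 higher and 1 lower.

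GCM1 (chr6:53126964-53148829, minus strand, protein coding) encodes a zinc-containing transcription factor that turns on syncytin genes when placental trophoblasts fuse. In hypoxia it had 28.8, 26.7, 29.8 and 23.1 CPM with SLC-0111, against 8.15, 10.7, 7.74 and 9.61 CPM with DMSO. In normoxia it had 15.2, 15.5, 14.6 and 15.5 CPM with SLC-0111, against 14.4, 13.5, 13.3 and 14.0 CPM with DMSO. The order of the group means was hypoxia with SLC-0111 at 27.1 ± 2.95 CPM, normoxia with SLC-0111 at 15.2 ± 0.420 CPM, normoxia with DMSO at 13.8 ± 0.481 CPM and hypoxia with DMSO at 9.06 ± 1.37 CPM (SD, n = 4 each). The libraries of neighbours in that order did not overlap, although the middle pair was only 1.099-fold apart. The level with SLC-0111 was 2.87-fold that with DMSO in hypoxia (log2 1.52 ± 0.09) and 1.099-fold in normoxia (0.14 ± 0.08). Hypoxia against normoxia was 0.83 ± 0.08 with SLC-0111 and -0.56 ± 0.09 with DMSO, of opposite sign.

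On average over oxygen, the SLC-0111 effect on GCM1 was 0.83 ± 0.06, a 1.78-fold rise (adjusted p = 5.15e-10), the largest of the 6. Its average oxygen effect was 0.14 ± 0.06 and did not pass the test (adjusted p = 0.0585). It passed without hypoxia SLC-0111 replicate 4 (0.17, adjusted p = 0.0104), hypoxia DMSO replicate 1 (0.19, adjusted p = 0.00771) or hypoxia DMSO replicate 3 (0.16, adjusted p = 0.0296). Those runs are unbalanced, so there the average is no longer orthogonal to the difference that chose GCM1. Markers of trophoblast were sparse beside it. CGA, CGB3 and PSG1 had 2, 1 and 7 counts over all libraries, whereas HSD3B1, a steroid enzyme, lay between 30.0 and 53.0 CPM. The 5 markers together summed to 46.7 to 52.2 CPM in hypoxia with SLC-0111, 36.2 to 52.0 with DMSO, 42.0 to 54.3 in normoxia with SLC-0111 and 30.3 to 34.8 with DMSO, and their part in the GCM1 values was not tested.

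Of the 20 other genes of this list, covering the paralogue GCM2, syncytins and their receptors, and trophoblast regulators and products, 14 were tested. With SLC-0111, 4 rose and 1 fell on average, beside 15.4% and 13.3% of all tested genes, with a median of 0.21. CYP19A1 (aromatase), which makes estrogens, had 10.8 ± 0.637 CPM with SLC-0111 and 6.08 ± 0.456 CPM with DMSO in hypoxia, and 5.93 ± 0.382 and 3.41 ± 0.224 CPM in normoxia. It rose with SLC-0111 by 0.80 ± 0.06 (adjusted p = 2.02e-09), beside 0.83 for GCM1, and the difference between its SLC-0111 effects was 0.0053 ± 0.140 (adjusted p = 0.995). GATA3, a regulator of trophoblast fate, rose by 0.33 ± 0.05 (adjusted p = 7.1e-05), and SYDE1, a GTPase-activating protein, fell by 0.76 ± 0.07 (adjusted p = 2.25e-08).

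In hypoxia 7 of the 14 rose and 3 fell, beside 29.5% and 31.0% of all tested genes, with a median of 0.14. Among them the transcription factors DLX3, OVOL1 and PPARG rose by 2.61 ± 0.20 (adjusted p = 3.95e-10), by 1.83 ± 0.17 (adjusted p = 2.14e-07) and by 0.96 ± 0.07 (adjusted p = 2.49e-11). The difference between the SLC-0111 effects was called in 3 of the 14, beside 5.99% of all tested genes, with a median of -0.019. It had the sign of GCM1 in GATA2 (0.68 ± 0.15, adjusted p = 0.0113) and in the growth factor PGF (0.44 ± 0.09, adjusted p = 0.00378), and the opposite sign in SYDE1 (-0.66 ± 0.14, adjusted p = 0.00654). GATA2 had 29.7 ± 4.38 CPM with SLC-0111 and 20.3 ± 3.34 CPM with DMSO in hypoxia, and 15.2 ± 1.65 and 17.5 ± 1.22 CPM in normoxia.

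GPR83 (chr11:94377311-94401419, minus strand, protein coding) is a receptor best known from the brain and from regulatory T cells, and in mice the peptide PEN, cut from the precursor proSAAS, is reported as its ligand. In hypoxia it had 24.8, 22.8, 22.7 and 20.8 CPM with SLC-0111, against 19.5, 19.6, 22.0 and 21.0 CPM with DMSO. In normoxia it had 10.9, 11.5, 9.02 and 10.2 CPM with SLC-0111, against 19.4, 18.3, 19.3 and 19.3 CPM with DMSO. The groups in hypoxia overlapped and those in normoxia were far apart, so that 12 libraries lay between 18.3 and 24.8 CPM and the other 4 at or below 11.5 CPM. The level with SLC-0111 was 1.12-fold that with DMSO in hypoxia (log2 0.17 ± 0.07) and 1.84-fold lower in normoxia (-0.88 ± 0.07). Hypoxia against normoxia was 2.18-fold with SLC-0111 (1.13 ± 0.07) and 1.06-fold with DMSO (0.081 ± 0.074).

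The average SLC-0111 effect on GPR83 was -0.36 ± 0.05 (adjusted p = 1.49e-05), the only one of the 6 called lower. Its average oxygen effect was 0.60 ± 0.05, a 1.52-fold rise in hypoxia (adjusted p = 6.18e-10). Of the 16 other genes for its reported ligands, their processing and G proteins, 11 were tested, and the average SLC-0111 effect was called higher in 3 and lower in 2, beside 15.4% and 13.3% of all tested genes, with a median of 0.062. PCSK1N, which encodes proSAAS, had 10.9 ± 0.801 CPM with SLC-0111 and 8.23 ± 0.750 CPM with DMSO in hypoxia, and 6.50 ± 1.16 and 4.92 ± 0.393 CPM in normoxia, and rose with SLC-0111 by 0.37 ± 0.08 (adjusted p = 0.000787). The G protein subunit GNAI1 rose by 0.14 ± 0.05 (adjusted p = 0.0408), and carboxypeptidase E (CPE), which trims peptide hormones, fell by 0.25 ± 0.07 (adjusted p = 0.0111).

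In hypoxia 6 of the 11 rose and 2 fell, beside 29.5% and 31.0% of all tested genes, with a median of 0.13. CPE rose by 1.33 ± 0.07 (adjusted p = 9.06e-14), the convertase PCSK1 by 1.12 ± 0.20 (adjusted p = 4.12e-05) and PCSK1N by 0.77 ± 0.08 (adjusted p = 9.36e-09). The difference between the SLC-0111 effects, with a median of 0.042, was called by edgeR in 0 of the 11, beside 5.99% of all tested genes, with 2 lower at an unadjusted p under 0.05, and by DESeq2 and limma-voom also in 0. When hypoxia DMSO replicates 1 and 3 were left out, 1 was called higher and 1 lower, in a run that called 2953 genes in all, against 1102.

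**Figure D2:**
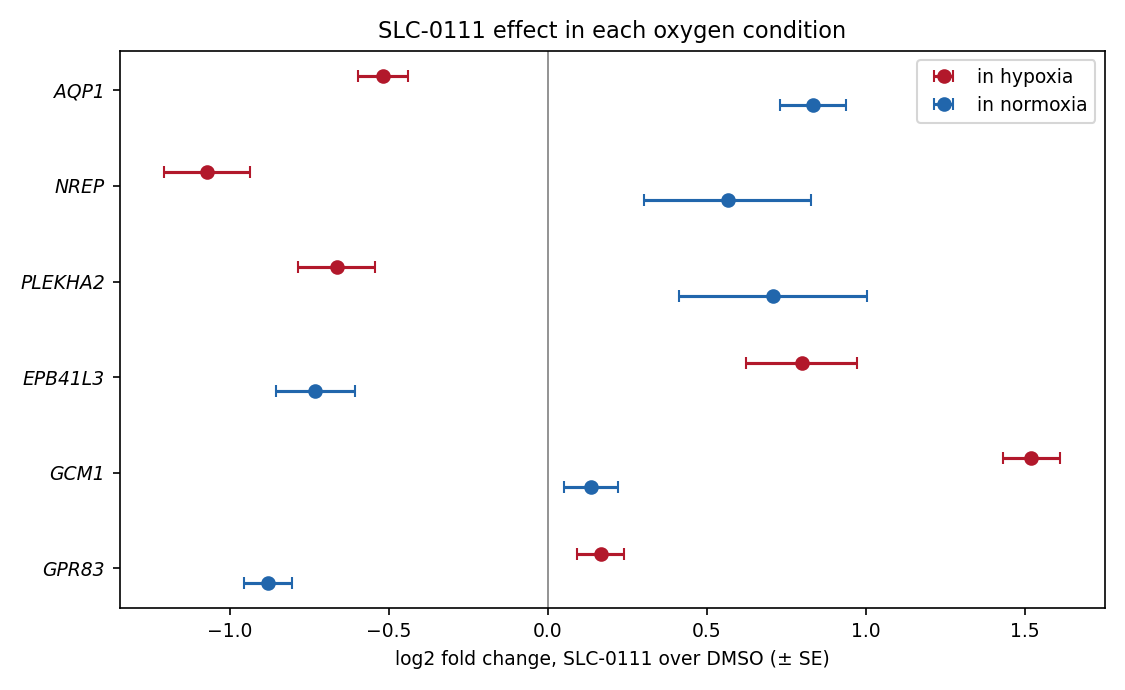
Fitted log2 fold change of SLC-0111 over DMSO for each gene, with 1 SE, in hypoxia (red) and in normoxia (blue). AQP1, NREP and PLEKHA2 lie between -1.07 and -0.52 in hypoxia and between 0.57 and 0.83 in normoxia, EPB41L3 lies the other way round, GCM1 is far from 0 only in hypoxia (1.52) and GPR83 only in normoxia (-0.88).

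Set beside each other, the members fall on both sides of the line of equal effects in the plot of all tested genes. AQP1, NREP and PLEKHA2 lie below it, with differences of -1.35 ± 0.13, -1.64 ± 0.30 and -1.37 ± 0.32 (log2 ± SE). EPB41L3, GCM1 and GPR83 lie above it, with 1.53 ± 0.21, 1.38 ± 0.12 and 1.05 ± 0.10. Larger differences of the same sign were called in 46 other genes for AQP1, 31 for NREP, 44 for PLEKHA2, 8 for EPB41L3, 9 for GCM1 and 21 for GPR83, counting members among them.

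**Figure D3:**
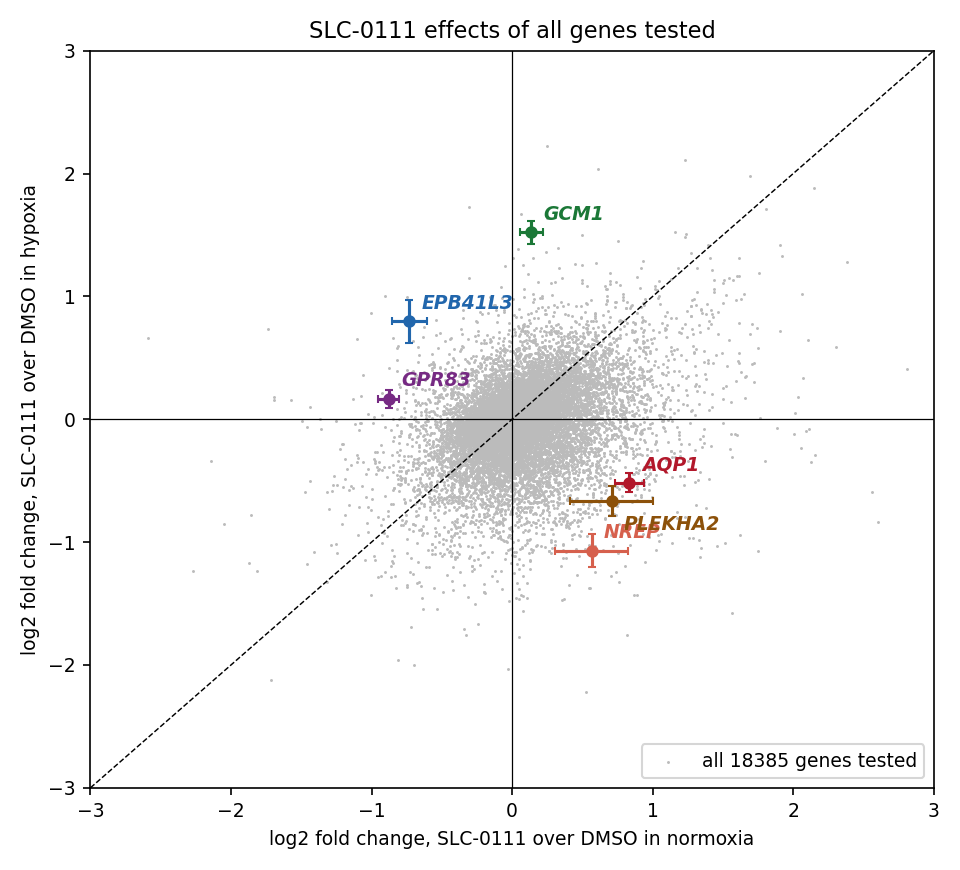
Log2 fold change of SLC-0111 over DMSO in normoxia (horizontal) and in hypoxia (vertical) for all 18385 tested genes (grey) and the 6 members (coloured, with 1 SE), the dashed line marking equal effects. A total of 4 genes lie outside the axes. The members lie off the line because this difference chose them.

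On the averages, which did not themselves choose the genes, the members differed among themselves. With SLC-0111 averaged over oxygen, 2 of 6 passed edgeR's test, GCM1 higher and GPR83 lower, where 28.6% of all tested genes passed. With oxygen averaged over treatment, 5 of 6 passed, 4 higher and EPB41L3 lower, where 60.5% of all tested genes passed. With hypoxia DMSO replicates 1 and 3 left out, the members called for the SLC-0111 average were the same. On the oxygen average GCM1 then passed edgeR's test too (0.21, adjusted p = 0.00494). That run is unbalanced, so there the averages are not orthogonal to the difference that chose the genes. By size of the average oxygen effect, PLEKHA2 ranked 36, AQP1 103, NREP 104, EPB41L3 563, GPR83 3742 and GCM1 13314 of the 18385 genes.

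**Figure D4:**
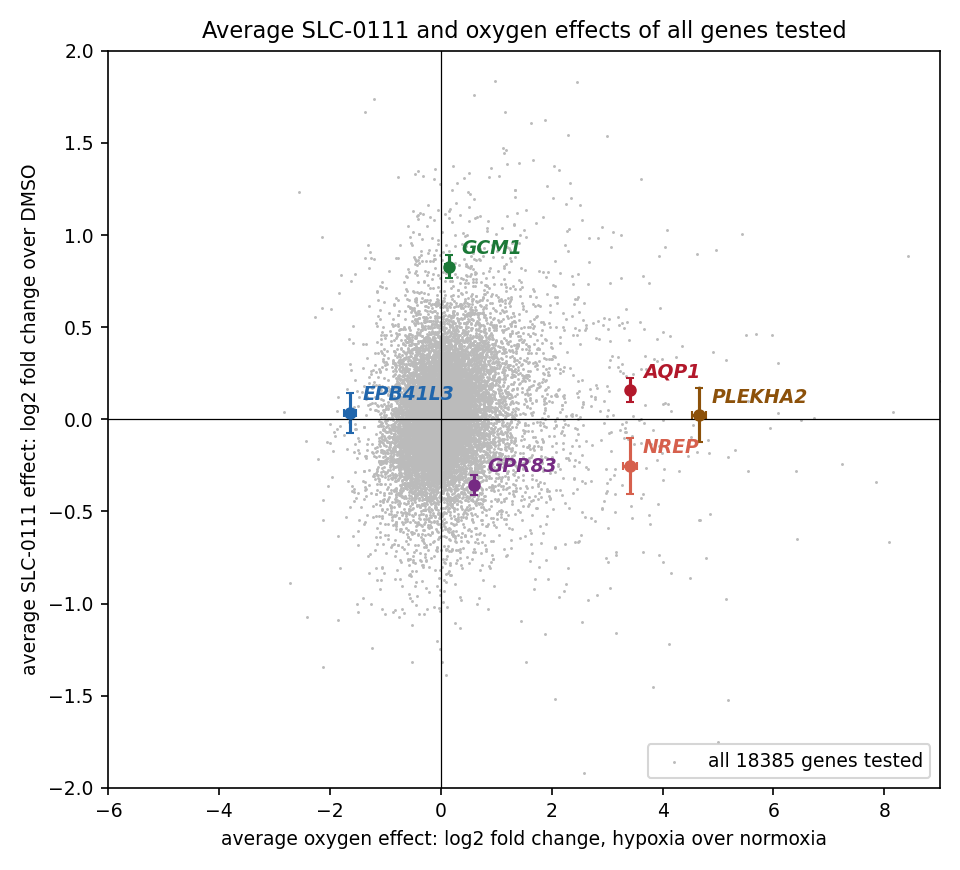
Average oxygen effect (horizontal, log2 fold change of hypoxia over normoxia) and average SLC-0111 effect (vertical, log2 fold change over DMSO) of all 18385 tested genes (grey) and the 6 members (coloured, with 1 SE). A total of 5 genes lie outside the axes. AQP1, NREP and PLEKHA2 lie far to the right (3.41 to 4.65), EPB41L3 to the left (-1.65), and GCM1 (0.83) and GPR83 (-0.36) are the members called on the vertical axis.

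The nearest tested protein-coding genes were looked up on both sides of each member. On either side of AQP1, MINDY4 and LSM5 had differences between the SLC-0111 effects of -0.36 ± 0.38 and 0.10 ± 0.09 (adjusted p = 0.63 and 0.525). Beside NREP, the cholesterol transport gene STARD4 had -0.39 ± 0.08 (adjusted p = 0.00347), the sign of NREP, and EPB41L4A had -0.98 ± 0.53 at 183 counts in all (adjusted p = 0.288). Beside PLEKHA2, TACC1, a centrosome protein, had 0.52 ± 0.16 (adjusted p = 0.0492), the opposite sign, and TM2D2 had 0.10 ± 0.12 (adjusted p = 0.672).

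Beside EPB41L3, ZBTB14 had -0.0079 ± 0.0993 (adjusted p = 0.985) and ARHGAP28 -0.44 ± 0.08 (adjusted p = 0.00266), the opposite sign. Beside GCM1, FBXO9 had -0.28 ± 0.13 and the fatty acid elongase ELOVL5 0.22 ± 0.08 (adjusted p = 0.221 and 0.114). Beside GPR83, IZUMO1R had 1.48 ± 0.59 at 137 counts in all, larger than the 1.05 of GPR83, and the DNA repair nuclease MRE11 -0.0023 ± 0.0741 (adjusted p = 0.141 and 0.996). The other annotated genes that overlap a member had 0 counts, except AP005059.1 and AP005059.2, antisense to EPB41L3, with 16 and 5 over all libraries. Among those with 0 counts was AC004691.2, a protein-coding gene on the same strand as AQP1. What this overlap does to the AQP1 counts was not tested. No annotated gene overlapped GCM1 or GPR83.

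The genes whose log2 CPM followed each member most closely over the 16 libraries were taken by Pearson's r among 12154 tested protein-coding genes averaging 1 CPM or more. The libraries share 4 group means, so a high r mostly restates the order and spacing of the groups, and it is given as a description. For AQP1 they were ALOX15, a lipoxygenase (r = 0.997), TNFSF10, the death ligand TRAIL (0.994), and POU5F1, the pluripotency factor OCT4 (0.993). TNFSF10 had 59.0 ± 5.47 CPM with SLC-0111 and 78.9 ± 10.4 CPM with DMSO in hypoxia, and 6.16 ± 0.247 and 2.47 ± 0.348 CPM in normoxia, each group apart from its neighbours as for AQP1. POU5F1 has near-identical pseudogene copies, so its counts are uncertain.

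For NREP the closest were PLB1, a phospholipase (0.987), MAB21L3 (0.986) and ANKZF1, a factor of ribosome quality control (0.985). MAB21L3 had 32.3 ± 4.52 CPM with SLC-0111 and 67.5 ± 1.81 CPM with DMSO in hypoxia, against 4.29 ± 0.231 and 4.35 ± 0.368 CPM in normoxia. For PLEKHA2 they were PFKFB4, an enzyme that sets the pace of glycolysis (0.997), TMCC1, a membrane protein of the endoplasmic reticulum (0.996), and GYS1, the glycogen synthase of muscle and most other tissues (0.996). PFKFB4 had 206 ± 11.3 CPM with SLC-0111 and 274 ± 46.3 CPM with DMSO in hypoxia, against 26.1 ± 1.77 and 21.5 ± 1.25 CPM in normoxia.

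For EPB41L3 the closest were RRP12, a ribosome assembly factor (0.983), ADGRG1, an adhesion receptor (0.980), and HTR1D, a serotonin receptor (0.976). HTR1D had 49.0 ± 0.646 CPM with SLC-0111 and 39.5 ± 4.77 CPM with DMSO in hypoxia, against 61.5 ± 6.85 and 78.7 ± 2.02 CPM in normoxia. For GCM1 they were PLXNA2, a semaphorin receptor (0.970), LONRF3 (0.944) and NFE2L2 (0.928), the transcription factor NRF2 of the oxidative stress response. NFE2L2 had 206 ± 16.7 CPM with SLC-0111 and 115 ± 17.4 CPM with DMSO in hypoxia, against 133 ± 3.41 and 120 ± 4.21 CPM in normoxia. For GPR83 they were ZW10, a kinetochore protein (0.936), CCAR2 (0.926) and EXOSC10, an RNA exosome nuclease (0.921), with smaller ranges of levels. ZW10 had 42.1 ± 2.35 CPM with SLC-0111 and 41.5 ± 1.71 CPM with DMSO in hypoxia, against 33.3 ± 2.05 and 40.9 ± 1.11 CPM in normoxia.

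**Figure D5:**
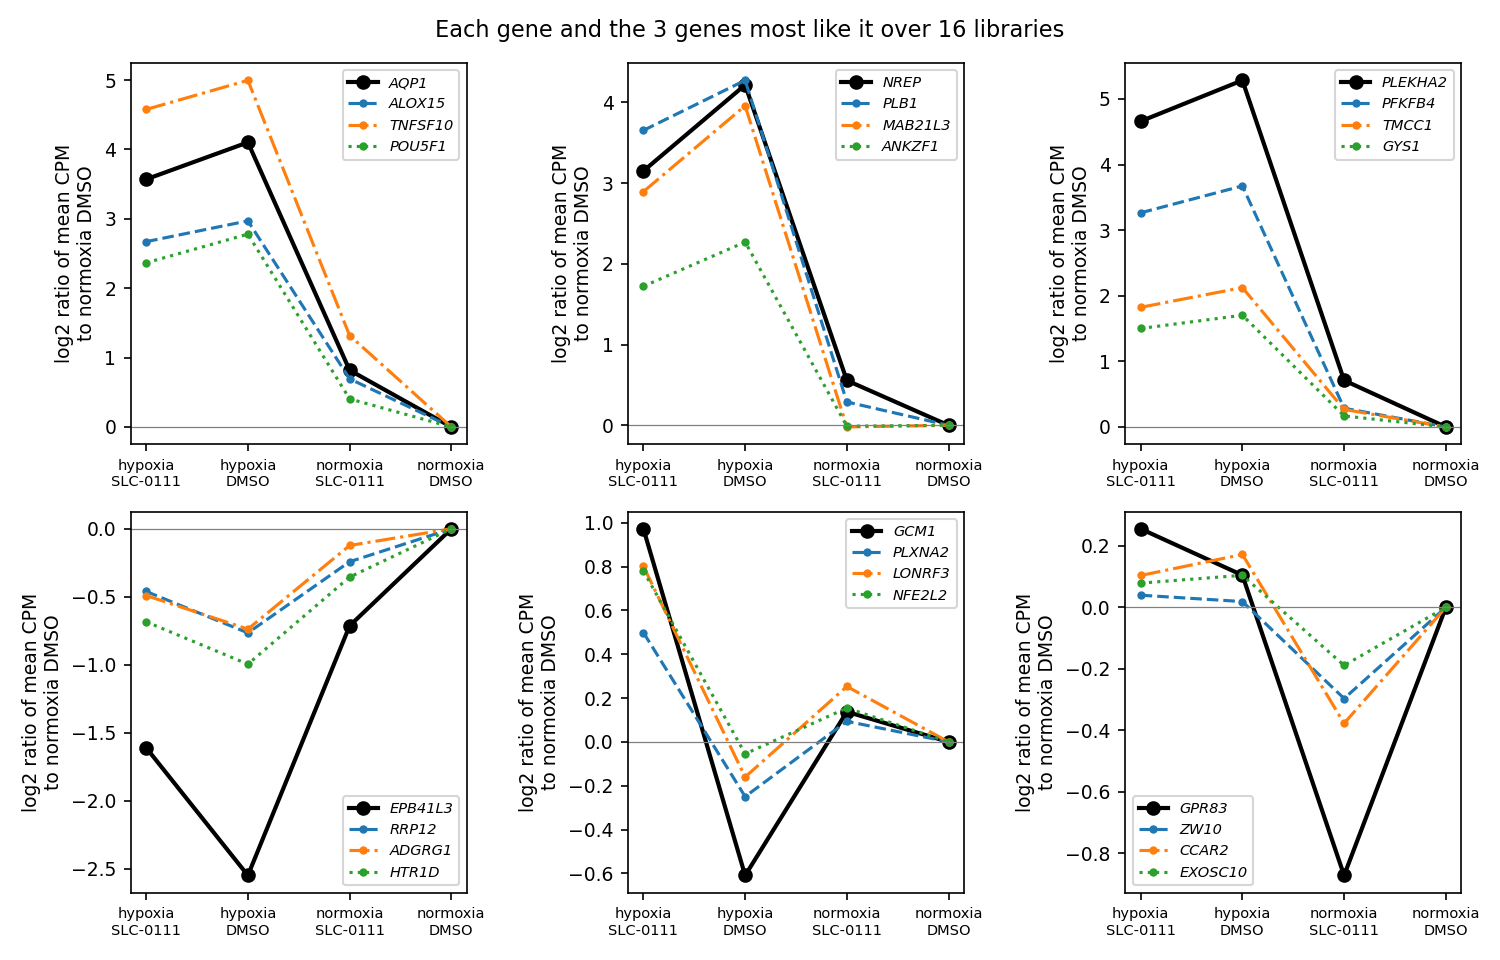
Group means of each member (black) and of the 3 genes most like it over the 16 libraries (coloured, broken lines), as the log2 ratio of mean CPM to that of normoxia DMSO. EPB41L3 drops furthest in hypoxia DMSO (1.70 CPM, against 9.96 CPM in normoxia DMSO) while RRP12, ADGRG1 and HTR1D keep a narrower range, and PLB1 and MAB21L3 span nearly the range of NREP.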

How the data were processed

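The deposited table holds raw read counts per gene for 16 libraries of total RNA. The submitters' processing notes name the build GRCh38 and the tools HISAT2 (or HISAT), HTSeq, MultiQC 1.10.1 and edgeR 3.4.0. The strand setting is not given in the sources used here. All 58735 identifiers were found in GENCODE release 29. For 2 columns the name gives the group of the labels and another replicate number, and these are called unnumbered.

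In R 4.3.3, edgeR 4.0.16 was run on the counts after filterByExpr (18385 genes) and TMM scaling, with a robust quasi-likelihood fit with 1 mean per group and 12 residual degrees of freedom. Log2 fold changes carry an SE (the fold change over the square root of F), CPM use TMM-scaled library sizes, and p-values were adjusted by Benjamini and Hochberg over all tested genes, with calls under 0.05. Log2 CPM for likeness used a prior count of 2. A count of 0 allows up to 3 counts, 0.0624 to 0.893 CPM over these depths, which covers counting error only. The code was tested on simulated data.

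The members and the gene lists were chosen with earlier results of these data known. The difference of the SLC-0111 effects chose the members, so it and its parts carry no p for them. The average SLC-0111 and average oxygen effects, whose contrasts are orthogonal to it with 4 libraries per group, were tested. Their estimates are unrelated to the difference only where the groups are measured equally well. The SE of the SLC-0111 effect was 0.12 in hypoxia and 0.30 in normoxia for PLEKHA2, and 0.13 and 0.26 for NREP. The average SLC-0111 tests are thus not wholly free of the choice, least so for these genes. Runs with a library left out are unbalanced, which limits both averages. Named besides the members are, per list and contrast, up to 3 called genes of at least 1 CPM with the largest change, the nearest tested protein-coding neighbours, overlapping genes, the 3 most alike genes and genes next in rank; some genes these rules took are not reported here. Alternatives of scaling, filter and tool were RLE scaling in edgeR, library size alone, 2 other filters, DESeq2 1.42.0 and limma-voom (limma 3.58.1). Each library was also left out in turn, and the replicate number was used as a block. Chosen after seeing the data were the 14 numbered libraries without a block, and hypoxia DMSO replicates 1 and 3 left out together.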

Additional observations from a re-analysis of the deposited data

Results flagged for a closer look

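Over the 6 members and 65 other genes taken by the rules for naming, 284 sets of 4 libraries were checked for a library far from the other 3, and 14 had one, where chance gives about 1 in 20 sets. Among the members it was GPR83 in normoxia DMSO replicate 2, at 18.3 CPM beside 19.3 to 19.4 CPM in the others. In hypoxia the others were DLX3 in SLC-0111 replicate 4 at 3.60 CPM, and TM2D2 and ANKZF1 in DMSO replicate 1 at 13.4 and 107 CPM. In normoxia with SLC-0111 they were TGFB2 and GATA3 in replicate 3 at 0.827 and 13.7 CPM, PPARG in replicate 1 at 4.46 CPM, and GATA2 and STARD4 in replicate 4 at 17.6 and 81.6 CPM. In normoxia with DMSO they were SMAD7, CYP19A1 and ELOVL5 in replicate 1 at 71.5, 3.75 and 180.0 CPM, EPB41L4A in replicate 3 at 0.642 CPM and DLX3 in replicate 4 at 0.825 CPM.

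The SLC-0111 effect had opposite signs in hypoxia and in normoxia, with groups apart at both, in 3 members. The difference, hypoxia minus normoxia, was -1.35 for AQP1, -1.37 for PLEKHA2 and 1.53 for EPB41L3 on the log2 scale. It chose these genes and was not tested for them.

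For other named genes the difference passed edgeR's test. Of the listed genes it was 0.60 for TGFB3, -0.46 for TGFBR1, -0.56 for LTBP2, -0.65 for INPP4B, -0.37 for MPDZ, -0.32 for SNTB1, -0.21 for EPB41L2, 0.44 for PGF, 0.68 for GATA2 and -0.66 for SYDE1. Of the genomic neighbours it was -0.39 for STARD4, 0.52 for TACC1 and -0.44 for ARHGAP28. The genes most like a member were taken for a pattern that includes this difference, so their values are a description. Beside AQP1 they were -0.98 for ALOX15, -1.77 for TNFSF10 and -0.85 for POU5F1, and beside NREP -0.93 for PLB1, -1.04 for MAB21L3 and -0.53 for ANKZF1. Beside PLEKHA2 they were -0.70 for PFKFB4, -0.59 for TMCC1 and -0.37 for GYS1, and beside EPB41L3 0.51 for RRP12, 0.36 for ADGRG1 and 0.63 for HTR1D. Beside GCM1 they were 0.61 for PLXNA2, 0.65 for LONRF3 and 0.67 for NFE2L2, and beside GPR83 0.30 for ZW10 and 0.31 for CCAR2.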

How the results depend on the processing

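No member's difference between the SLC-0111 effects changed sign under any alternative run or any library left out. With 1 library left out, it lay between -1.44 and -1.24 for AQP1, -1.80 and -1.46 for NREP and -1.54 and -1.21 for PLEKHA2. For EPB41L3 it lay between 1.37 and 1.66, for GCM1 1.30 and 1.49 and for GPR83 0.97 and 1.103. Over the other runs it lay between -1.39 and -1.31 for AQP1, -1.65 and -1.52 for NREP and -1.58 and -1.33 for PLEKHA2. There EPB41L3 lay between 1.52 and 1.79, GCM1 between 1.27 and 1.43 and GPR83 between 1.04 and 1.11. The average SLC-0111 effect of AQP1 passed the test with no filter on low counts (0.18, adjusted p = 0.00789) and ranged from 0.10 to 0.20 over the libraries left out. The average oxygen effect of GCM1 passed with RLE scaling (0.15, adjusted p = 0.0486), with a filter at 1 CPM in 4 libraries (0.15, adjusted p = 0.0318) and without hypoxia DMSO replicates 1 and 3 (0.21, adjusted p = 0.00494), and ranged from 0.082 to 0.19 over the libraries left out. The average SLC-0111 effects of PLEKHA2 and EPB41L3, not called, took either sign, from -0.090 to 0.17 and from -0.046 to 0.15. Genes called for the difference numbered 1102, against 2953 without hypoxia DMSO replicates 1 and 3, 624 in the 14 numbered libraries without a block and 691 to 2040 over the libraries left out. In those 14 libraries with the replicate number as a block the count was 1881. The deviations of same-numbered libraries of different groups correlated at -0.031 to 0.35 (median 0.076). For other numbers they correlated at -0.30 to 0.22 (median -0.0068). The highest values, 0.24 to 0.35, were those between libraries of replicate 4. The main fit does not pair the samples, and whether libraries of the same number share an effect was not tested. With library size alone, list counts moved. The difference was called higher in 0 TGF-beta genes and lower in 1 gene of PtdIns(3,4)P2 and in 0 genes of the protein 4.1 list (0 also with RLE scaling). SLC-0111 averaged over oxygen was called lower in 5 TGF-beta genes and 6 lipid genes, and higher in 1 gene of the protein 4.1 list, 2 trophoblast genes and 1 gene of the GPR83 list. The cause was not tested. By Spearman's rank correlation in place of Pearson's r, 1 of the 3 most alike genes was shared for AQP1, PLEKHA2 and EPB41L3 each, and 0 for NREP, GCM1 and GPR83. Depth limits NREP and PLEKHA2 in normoxia and EPB41L3 in hypoxia DMSO replicate 3.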
